A study of Mus musculus with 26 samples.

Results

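The ATRX binding map of wild-type (WT) mouse embryonic fibroblasts (MEFs) was compared with that of MEFs whose ATRX lacks its RNA binding region (RBR), to find the ATRX peaks that were lost or gained in both replicates. A consistent loss was a WT replicate 1 peak that overlapped a WT replicate 2 peak by 1 bp or more and no peak of either ATRXΔRBR list, and a consistent gain was the reverse. By this rule 413 peaks were lost and 147 were gained, together 560 of the 25009 peaks in the 4 ATRX lists. The losses were 12.8% of the 3229 WT replicate 1 peaks that recurred in replicate 2, and the gains were 7.16% of the 2054 ATRXΔRBR replicate 1 peaks that recurred. Since the lists themselves define loss and gain, these counts are a description without a test, and with 2 lists against 2 the smallest two-sided exact permutation p would be 0.333.

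CUT&RUN, in which an antibody directs a nuclease to cut bound chromatin out of permeabilized cells, was performed with a custom-made ATRX antibody in 2 replicates of each genotype. WT cells were female MEFs with unaltered ATRX. ATRXΔRBR cells were a single clone of female MEFs in which CRISPR-Cas9 removed part of exon 9 of the endogenous gene in frame, so that a shortened protein is still made and clone and deletion cannot be told apart. EZH2 and H3K27me3 CUT&RUN and RNA-Seq of the same genotypes, 2 libraries each, were used as readouts that the rule did not use. The EZH2 lists share some properties of the ATRX lists, as given below. The IgG libraries were not analysed here.

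ATRX is a chromatin remodeller of the SWI/SNF family that, with its partner DAXX, deposits the histone variant H3.3, and it is known for its presence at telomeres, pericentromeric repeats and other heterochromatin. It also binds RNA, and it has been linked to the recruitment of Polycomb repressive complex 2, whose subunit EZH2 methylates lysine 27 of histone H3. The RBR is one of the regions of the protein that bind RNA.

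The regions that lead each set show what kind of DNA was involved. The 300 bp at the midpoints of 2 of the strongest losses and of the 3 strongest gains are printed from the reference genome (RefSeq, GRCm38, plus strand, 5′ to 3′), followed by the strongest loss at the TSS of a protein-coding gene. Strength was the lower of the fold enrichments in the 2 replicates of the genotype that holds the peak. Capitals mark matches to the AP-1 motif TGANTCA, bound by Fos and Jun dimers, and to the GC box GGGCGG, bound by Sp1-family factors, each on either strand.

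Loss in Pxylp1, touching an exon, chr9:96860572-96860871: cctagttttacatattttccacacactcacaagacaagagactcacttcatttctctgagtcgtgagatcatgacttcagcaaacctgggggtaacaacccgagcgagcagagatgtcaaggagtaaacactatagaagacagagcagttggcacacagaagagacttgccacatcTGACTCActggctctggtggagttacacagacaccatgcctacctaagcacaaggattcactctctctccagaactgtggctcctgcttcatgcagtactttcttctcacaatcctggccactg
Loss in an intron of the predicted gene Gm15581, chr6:17224761-17225060: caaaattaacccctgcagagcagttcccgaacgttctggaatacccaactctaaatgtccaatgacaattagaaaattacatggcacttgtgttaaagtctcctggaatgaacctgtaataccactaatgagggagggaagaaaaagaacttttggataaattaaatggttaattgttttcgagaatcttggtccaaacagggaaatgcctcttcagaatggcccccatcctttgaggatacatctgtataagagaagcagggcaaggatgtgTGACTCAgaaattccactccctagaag
Gain at the TSS of the lincRNA Gm28199, chr1:90975110-90975409: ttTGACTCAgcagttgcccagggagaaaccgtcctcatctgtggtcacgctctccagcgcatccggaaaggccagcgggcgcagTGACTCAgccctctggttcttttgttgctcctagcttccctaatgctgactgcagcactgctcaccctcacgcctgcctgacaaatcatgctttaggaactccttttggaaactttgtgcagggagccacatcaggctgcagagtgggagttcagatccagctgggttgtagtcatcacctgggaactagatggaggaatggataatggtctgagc
Gain between genes, chr5:136570245-136570544: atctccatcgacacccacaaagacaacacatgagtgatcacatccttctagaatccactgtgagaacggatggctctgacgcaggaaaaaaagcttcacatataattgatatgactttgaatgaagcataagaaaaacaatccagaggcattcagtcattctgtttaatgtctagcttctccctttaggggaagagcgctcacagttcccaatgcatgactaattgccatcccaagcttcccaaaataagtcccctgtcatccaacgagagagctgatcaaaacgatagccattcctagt
Gain at the TSS of Pik3ca, chr3:32396746-32397045: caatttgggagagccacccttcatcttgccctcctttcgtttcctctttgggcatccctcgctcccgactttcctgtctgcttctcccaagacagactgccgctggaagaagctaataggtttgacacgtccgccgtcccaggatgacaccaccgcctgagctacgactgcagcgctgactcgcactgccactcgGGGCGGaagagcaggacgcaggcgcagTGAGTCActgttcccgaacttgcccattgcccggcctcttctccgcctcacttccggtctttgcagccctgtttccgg
Loss at the TSS of Txn1, chr4:57956506-57956805: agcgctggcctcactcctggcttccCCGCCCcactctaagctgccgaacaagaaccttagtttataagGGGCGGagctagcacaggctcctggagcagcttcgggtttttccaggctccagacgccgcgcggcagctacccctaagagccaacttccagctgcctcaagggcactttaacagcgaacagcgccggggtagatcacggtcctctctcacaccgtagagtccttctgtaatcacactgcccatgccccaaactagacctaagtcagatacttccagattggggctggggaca

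The GC content of these windows was 47.7% and 41.0% for the first 2 losses, 54.3%, 43.0% and 60.0% for the gains and 58.0% for the Txn1 window. The losses in Pxylp1 and Gm15581 each held 1 AP-1 match. The Gm28199 window held 2 AP-1 matches, the Pik3ca window 1 AP-1 match and 1 GC box, and the Txn1 window 2 GC boxes. Fold enrichment is the authors' ratio of reads in a peak to the local background, and it was not compared between lists because the depth of the libraries cannot be read from peak lists. The Pxylp1 loss had a fold enrichment of 5.92 and 5.52 in WT replicates 1 and 2, higher than or equal to 95.5% and 91.6% of the peaks of those lists. The nearest ATRXΔRBR peak lay 2260 bp away. The Gm28199 gain had 5.99 and 6.23 in ATRXΔRBR replicates 1 and 2, and the nearest WT peak lay 65232 bp away.

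Before the sets are described, 2 properties of the ATRX lists bear on them. First, the replicate 2 lists of WT and ATRXΔRBR shared 280 peaks with identical start and end and 768 identical starts, and 66 of the 280 also had the same fold enrichment to all deposited digits. Any other pair of ATRX lists shared at most 1 identical peak and between 5 and 23 identical starts, so the lists that carry replicate number 2 were closer in their edges than any lists of the same genotype. The EZH2 replicate 2 lists of WT and ATRXΔRBR showed the same with 296 identical peaks, none with equal fold enrichment, whereas no pair of H3K27me3 lists shared an identical peak. A peak present in both replicate 2 lists can be neither a loss nor a gain, and how the shared edges arose was not tested. With the replicate 1 lists alone, 5703 of 9141 WT peaks were absent from ATRXΔRBR and 2870 of 6274 ATRXΔRBR peaks were absent from WT.

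Second, ATRXΔRBR replicate 2 had few peaks on parts of chromosomes 6 and 10, and ATRXΔRBR replicate 1 was low on both chromosomes as well. The ratio of ATRXΔRBR to WT peaks in the replicate 1 lists was 0.405 on chromosome 6 and 0.515 on chromosome 10. On all other chromosomes together it was 0.716. In the first 90 Mb of chromosome 6 the lists held 244 and 118 peaks in WT replicates 1 and 2 and 102 and 15 peaks in ATRXΔRBR replicates 1 and 2. In the rest of chromosome 6 ATRXΔRBR replicate 2 held 88 peaks against 81 in WT replicate 2, while ATRXΔRBR replicate 1 held 68 against 176 in WT replicate 1. The EZH2 lists held 504 peaks in WT replicate 2 and 121 in ATRXΔRBR replicate 2 before 90 Mb, and 317 and 177 after it. The EZH2 replicate 1 lists differed less there, with 595 in WT and 505 in ATRXΔRBR before 90 Mb, and 406 and 311 after it. On chromosome 10 from 30 Mb onward, the ATRX lists held 541 and 318 peaks in WT and 278 and 125 in ATRXΔRBR. Of 104 windows of 20 Mb with at least 20 WT replicate 2 peaks, the 9 with the lowest ratio of ATRXΔRBR to WT replicate 2 peaks all lay on these chromosomes, which have 12 such windows. These borders were chosen after the values were seen.

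Losses were concentrated there. Chromosome 6 lost 53 of its 127 recurrent WT peaks (41.7%) and chromosome 10 lost 81 of 317 (25.6%), while all other chromosomes together lost 279 of 2785 (10.0%). Within chromosome 6 the loss was 45 of 80 peaks (56.2%) before 90 Mb and 8 of 47 (17.02%) after it. Gains were rare on chromosome 10, with 1 gain among 115 recurrent ATRXΔRBR peaks (0.870%). The RNA of these segments was as follows. The median log2 fold change of ATRXΔRBR over WT was 0.18 over 475 genes in the first 90 Mb of chromosome 6. It was -0.45 over the 346 genes beyond it, against -0.02 over all genes tested. On chromosome 10 it was -0.38 over 123 genes in the first 30 Mb and -0.05 over the 699 genes beyond. The medians of the other chromosomes, with Y left out, ran from -0.23 on chromosome 9 to 0.32 on chromosome 1. A shift like that of the first 90 Mb was therefore not particular to it. The H3K27me3 lists differed less in the first 90 Mb than the ATRX lists, from 1223 and 1280 peaks in WT to 794 and 603 in ATRXΔRBR. Whether the number of chromosome copies in the clone or the libraries contributes was not tested.

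**Figure D1:**
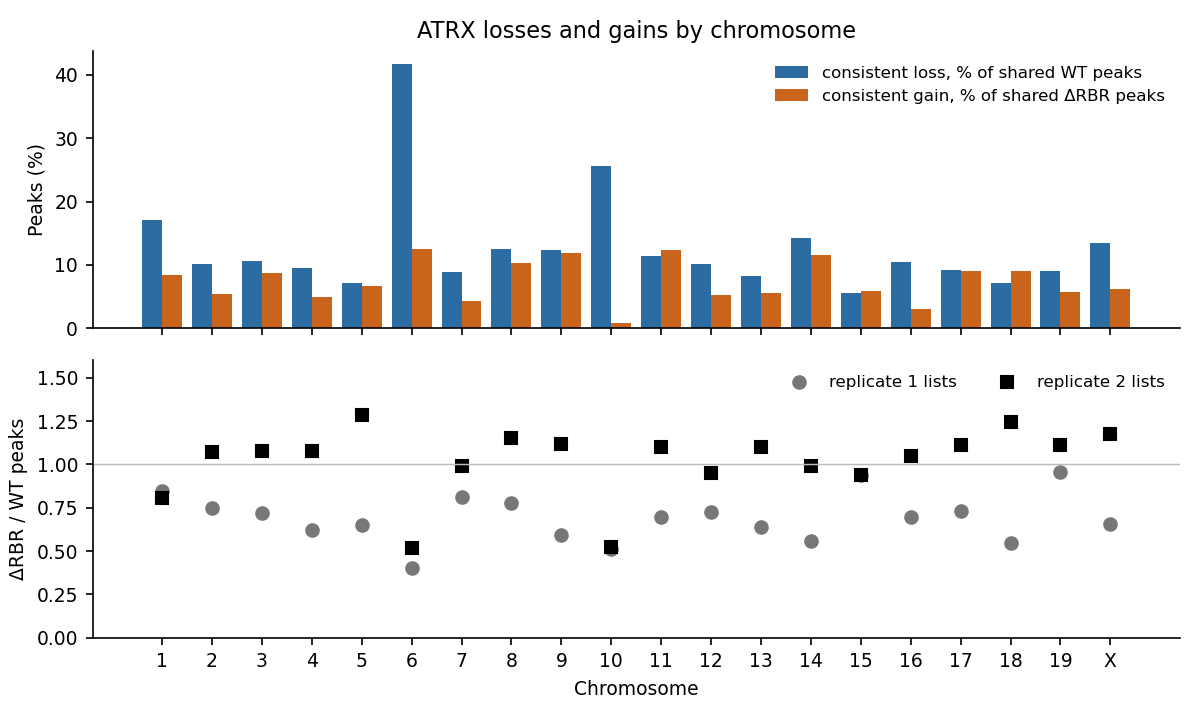
Upper panel, consistent losses as a percentage of recurrent WT peaks and consistent gains as a percentage of recurrent ATRXΔRBR peaks on each chromosome (Y not drawn). Lower panel, number of ATRXΔRBR peaks divided by WT peaks in the replicate 1 lists (circles) and in the replicate 2 lists (squares). Chromosomes 6 and 10 have the tallest loss bars (41.7% and 25.6%). Their replicate 2 ratios, 0.518 and 0.522, are the lowest of that pair of lists. Their replicate 1 ratios, 0.405 and 0.515, are also the lowest of the chromosomes drawn.

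Losses and gains were a small part of a larger disagreement among the lists. When the peaks of all 4 lists were merged into 13813 regions, 7522 were found in 1 list only and 1429 in all 4. Regions held by both WT lists and no ATRXΔRBR list numbered 398, and those held by both ATRXΔRBR lists and no WT list numbered 138. Combinations that follow the replicate number were more frequent: 1230 regions were held by the replicate 1 list of each genotype alone, and 628 by the replicate 2 list of each genotype alone. Of the regions shared by the replicate 1 lists alone, 54.4% lay at a TSS, compared with 23.6% of those shared by the replicate 2 lists alone. Leaving out a list removes a condition of the rule, so the counts could only rise, and that direction is not a result. Losses rose from 413 to 938 without WT replicate 1 and to 4339 without WT replicate 2. They rose to 902 without ATRXΔRBR replicate 1 and to 1341 without ATRXΔRBR replicate 2. Gains rose from 147 to 424, 389, 904 and 2456 in the same order.

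**Figure D2:**
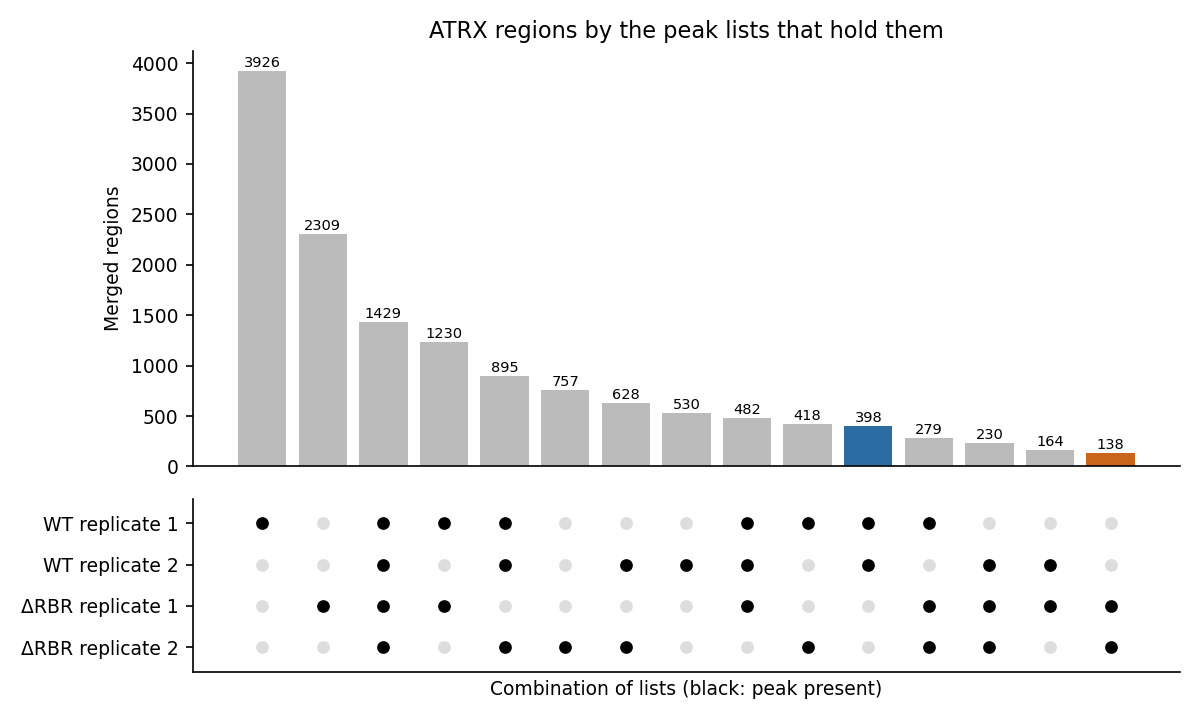
Number of merged ATRX regions for each combination of the 4 peak lists, with a black dot for each list that holds the region. Regions in both WT lists alone (398, blue) and in both ATRXΔRBR lists alone (138, orange) are fewer than regions shared by the replicate 1 lists alone (1230) or by the replicate 2 lists alone (628).

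The lost peaks were narrower and more moderate than recurrent WT peaks that were kept. Their median width was 304 bp, against 418 bp for the 2816 recurrent WT peaks that also overlapped an ATRXΔRBR peak, and their median fold enrichment in WT replicate 1 was 4.37 against 4.59. The gains had a median width of 368 bp and a median fold enrichment of 4.19 in ATRXΔRBR replicate 1, against 434 bp and 4.48 for the 1907 recurrent ATRXΔRBR peaks also found in WT. At the authors' threshold a listed peak has a q-value of 0.1 or less. Of the losses, 272 (65.9%) had a q-value of 0.01 or less in WT replicate 1, and 72 gains (49.0%) did in ATRXΔRBR replicate 1. Requiring this in both replicates left 117 losses and 28 gains. These values belong to the lists that define the sets.

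**Figure D3:**
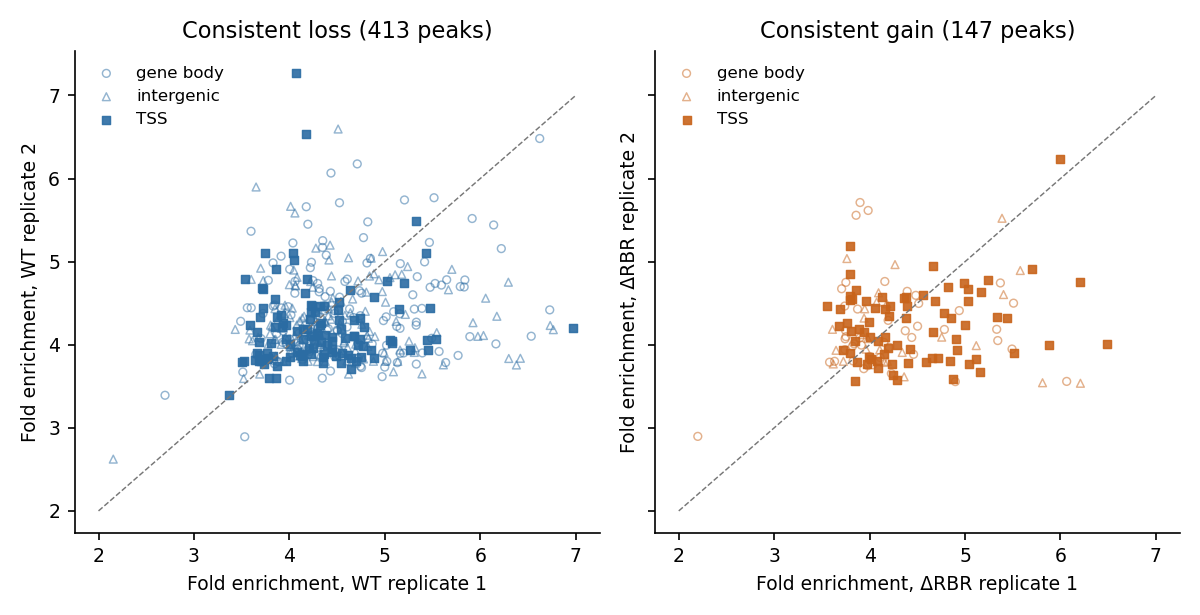
Fold enrichment over local background of each lost peak in WT replicates 1 and 2 (left) and of each gained peak in ATRXΔRBR replicates 1 and 2 (right), by placement, with the dashed line marking equal values. The lower of the 2 values runs from 2.15 to 6.48 for losses and from 2.1996 to 5.99 for gains, and peaks that are strong in one replicate are often moderate in the other.

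The distance from a member to the other genotype's peaks comes from the lists that define the sets. It was not computed for other peaks, so it is not read as a trait of the members. A gap of more than 10 kb to any peak of the other genotype was found for 304 of 413 losses (73.6%) and 97 of 147 gains (66.0%), and only 15 losses and 11 gains had such a peak within 500 bp. At the other side of the rule, 32 of the 2816 kept WT peaks and 9 of the 1907 kept ATRXΔRBR peaks overlapped the other genotype by 50 bp or less.

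Most losses lay away from genes' starts, and the share of gains at a TSS was larger in these lists, without a test of the difference. With a TSS window of 2 kb on each side, 119 losses (28.8%) were at a TSS, while 153 (37.0%) lay within a gene and 141 (34.1%) between genes, close to the 27.02%, 37.1% and 35.9% of kept WT peaks. Of the gains, 76 (51.7%) were at a TSS, while 45 (30.6%) lay within a gene and 26 (17.7%) between genes, whereas 31.6% of kept ATRXΔRBR peaks were at a TSS. With a window of 1 kb, 24.2% of losses and 43.5% of gains were at a TSS. Within gene bodies, 139 of 153 losses and 36 of 45 gains touched no annotated exon and so were intronic. The TSS share of the gains moved with ATRXΔRBR replicate 1, whose whole list had 47.1% of its peaks at a TSS while the other lists had between 26.3% and 31.3%. Without that list the share of gains at a TSS was 29.3%.

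The strongest losses were mostly intronic. Besides the site in Pxylp1, which encodes a phosphatase of proteoglycan synthesis, they lay in introns of the predicted gene Gm15581, of Fgd6, a guanine nucleotide exchange factor for Cdc42, and then at the TSS of Txn1. The Fgd6 peak had 6.14 and 5.44 in WT replicates 1 and 2, and the nearest ATRXΔRBR peak was 316781 bp away. The 10 strongest also included introns of the predicted gene Gm46392, of Cdc40, a splicing factor, of Tmem182 and of Ank3, which encodes the membrane anchor ankyrin-G, and the TSS of Slx4. The Fgd6, Cdc40 and Ank3 sites are on chromosome 10 and the Gm15581 site is in the first part of chromosome 6.

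At the TSS of protein-coding genes, Txn1 encodes thioredoxin, the main cytosolic protein disulfide reductase, and Slx4 a scaffold for nucleases that resolve DNA repair intermediates. The Txn1 peak, chr4:57956532-57956780, had 5.33 and 5.49 in WT replicates 1 and 2, and its midpoint lay 245 bp upstream of the TSS. The Slx4 peak, chr16:4003707-4004155, had 5.43 and 5.10 and overlapped the first part of the gene. Next in strength were losses at Ndrg1, a stress and hypoxia responsive gene (5.03 and 4.76), and at Gsn, which encodes the actin-severing protein gelsolin (5.20 and 4.74). Losses followed at Gm13289, at the shared start of Poln and Haus3, at Nfyb, a subunit of the CCAAT-binding factor NF-Y, at Lgals2, at Gopc and at Zfp444, with fold enrichments between 4.32 and 4.88 in either replicate.

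The strongest gains were mostly at promoters. After Gm28199, a site between genes on chromosome 5 and Pik3ca, they lay on an unlocalised contig of chromosome 4, at Apol7a, at Cep68, in an intron of Gucy2g, and at Lrig1, Chd1 and Cyld. Pik3ca encodes the catalytic subunit of phosphoinositide 3-kinase, and its peak, chr3:32396765-32397027, had 5.70 and 4.91 in ATRXΔRBR replicates 1 and 2 with the nearest WT peak 99526 bp away. Cep68, a centrosome linker gene, carried a peak at chr11:20249148-20249650 with 6.20 and 4.76 that covered the TSS. Lrig1, a negative regulator of receptor tyrosine kinases, carried one at chr6:94700160-94700557 with 4.99 and 4.74. Chd1, a chromatin remodeller of active genes, had 4.83 and 4.69, and Cyld, a deubiquitinase of the NF-κB pathway, had 5.03 and 4.67. The next protein-coding promoters were Dcp2, the mRNA decapping enzyme, Rpl10a, a ribosomal protein of the large subunit, the shared start of Smim4 and Nt5dc2, and Hexim1, an inhibitor of the elongation factor P-TEFb, with values between 4.52 and 5.17. The Rpl10a gain was among those close to a WT peak, which lay 22 bp away in WT replicate 2.

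Base composition differed between the sets. The mean GC content was 50.1% ± 8.53 (SD, n = 410 losses) and 54.9% ± 9.82 (SD, n = 146 gains), against 49.4% in kept WT peaks and 50.4% in kept ATRXΔRBR peaks, with the 3 losses and 1 gain off the assembled chromosomes left out. The difference of 4.83 percentage points was 2.95 when TSS peaks were compared with TSS peaks and 2.06 outside TSS. The whole ATRXΔRBR replicate 1 list had a mean GC content of 53.5% while the other lists had between 49.1% and 50.4%, and its part in the difference was not tested. The ratio of observed to expected CpG, which is high in CpG islands, averaged 0.320 in losses and 0.492 in gains. It was 0.330 in kept WT peaks, 0.362 in kept ATRXΔRBR peaks and 0.469 in the whole ATRXΔRBR replicate 1 list. At TSS it was 0.588 in losses and 0.690 in gains, against 0.691 in that list. Repeats, read from the soft-masked bases of the reference, covered on average 10.5% of a loss and 8.40% of a gain. They covered 11.6% of a kept WT peak and 11.0% of a kept ATRXΔRBR peak.

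A short palindrome, the AP-1 site, was common in the lost peaks. TGANTCA was present in the central 300 bp of 203 of 410 losses (49.5%) and 38 of 146 gains (26.03%), compared with 7.81% of 32851 RefSeq promoter windows of the same length. Kept WT peaks held it in 46.0% and kept ATRXΔRBR peaks in 42.8%, so that losses did not stand far from other recurrent ATRX peaks. Outside TSS the motif was found in 178 of 291 losses (61.2%) and 29 of 70 gains (41.4%), and in 55.3% and 54.8% of the kept peaks of WT and ATRXΔRBR. At TSS it was found in 25 of 119 losses (21.0%) and 9 of 76 gains (11.8%). The matches were centred on the peaks: 83 of 291 losses outside TSS (28.5%) and 19 of 70 gains (27.1%) held one in the central 100 bp, whereas bins 1 kb away held one in between 2.75% and 3.78%. A match is only a run of letters and was not read as a bound site.

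**Figure D4:**
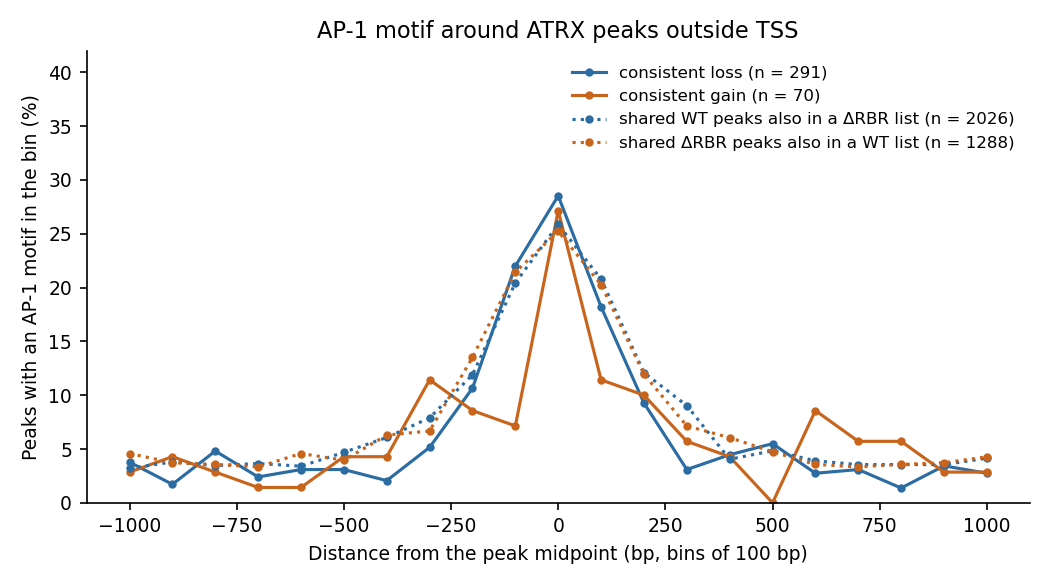
Percentage of ATRX peaks outside TSS with an AP-1 motif in each 100 bp bin, by distance from the midpoint of the peak. All 4 sets peak at the midpoint, at 28.5% for losses and 27.1% for gains, and come down to 4.58% or less at 1 kb. The curve of the 70 gains is the least even.

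Some other motifs were more frequent at TSS than outside them. The GC box was present in 17.3% of losses and 39.0% of gains, against 35.7% of promoters. Kept WT peaks held it in 19.2% and kept ATRXΔRBR peaks in 21.8%. At TSS alone it was in 57 of 119 losses (47.9%) and 50 of 76 gains (65.8%). There it was in 49.1% and 52.1% of the kept peaks, and in 59.5% of the whole ATRXΔRBR replicate 1 list. Outside TSS it was in 14 of 291 losses (4.81%) and 7 of 70 gains (10.0%). Motifs linked to the known targets of ATRX were searched as well. The G-quadruplex motif has 4 runs of at least 3 G with loops of up to 7 bases. It was found in 7.80% of losses and 15.1% of gains, against 18.6% of promoters, 7.79% of kept WT peaks and 8.15% of kept ATRXΔRBR peaks. At TSS it was in 21 of 119 losses (17.6%) and 17 of 76 gains (22.4%), against 17.9% of the whole ATRXΔRBR replicate 1 list. Outside TSS it was in 11 of 291 losses (3.78%) and 5 of 70 gains (7.14%). The telomere repeat unit TTAGGG was found in 12.7% and 10.3%, against 10.6% of promoters. The TEAD site GGAATG was found in 22.9% and 21.9% of losses and gains. The ETS core CCGGAAG (3.17% and 6.85%), the NRF1 core CGCATGCG (1.22% and 0), the E-box CACGTG (6.83% and 2.05%), the CRE TGACGTCA (0.488% and 2.05%), CCAAT (33.4% and 39.7%) and AGGGGGC, a part of the CTCF core (3.902% and 7.53%), were also searched on both strands.

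Fewer losses of ATRX overlapped a listed EZH2 peak in ATRXΔRBR than in WT, while the shares at gains were similar. An EZH2 peak overlapped 279 losses (67.6%) in EZH2 WT replicate 1 and 251 (60.8%) in replicate 2, but 187 (45.3%) in ATRXΔRBR replicate 1 and 81 (19.6%) in replicate 2. The values of the genotypes did not overlap. At kept WT peaks the shares were 76.8% and 68.8% in WT and 66.2% and 43.8% in ATRXΔRBR. They were thus lower there as well, by a smaller amount in each replicate. Over the whole WT replicate 1 ATRX list the shares were 65.3% and 53.0% in WT and 52.6% and 33.6% in ATRXΔRBR. At gains the shares were 72.8% and 59.9% in WT and 72.1% and 61.9% in ATRXΔRBR, which overlapped. EZH2 was therefore already listed in WT cells at most sites where ATRX was gained. This held for kept ATRXΔRBR peaks as well, whose shares were 79.9% and 71.4% in WT and 76.7% and 52.1% in ATRXΔRBR. Between the replicate 2 lists the share thus fell at those kept peaks but not at gains.

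The EZH2 lists themselves differed in size, with 22316 and 18351 peaks in WT and 22418 and 11408 in ATRXΔRBR, and the replicate 2 lists share edges as described above. These shares were compared without a test, since an exact permutation test of 2 libraries against 2 cannot go below 0.333. With the replicate 1 lists alone as the measure of EZH2, the fall at losses was from 67.6% to 45.3% between lists of nearly equal size. Without chromosomes 6 and 10 the shares at the remaining 279 losses were 67.4% and 62.7% in WT and 49.5% and 24.0% in ATRXΔRBR. At the 119 losses at TSS the shares were 85.7% and 79.0% in WT and 76.5% and 48.7% in ATRXΔRBR. Outside TSS they fell further. In gene bodies they went from 63.4% and 58.8% to 39.2% and 8.50%, and between genes from 56.7% and 47.5% to 25.5% and 7.09%. A larger fall outside TSS was not particular to losses. At kept WT peaks the replicate 2 share fell from 85.4% to 70.2% at TSS. It fell from 66.2% to 35.5% in gene bodies and from 58.9% to 32.3% between genes. The replicate 1 share at kept WT peaks also fell further outside TSS. At each placement the fall at kept WT peaks was smaller than at losses. EZH2 was held by both WT lists and neither ATRXΔRBR list at 55 losses (13.3%), 1 gain (0.680%) and 153 kept WT peaks (5.43%). No loss and no gain had EZH2 in both ATRXΔRBR lists and neither WT list.

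**Figure D5:**
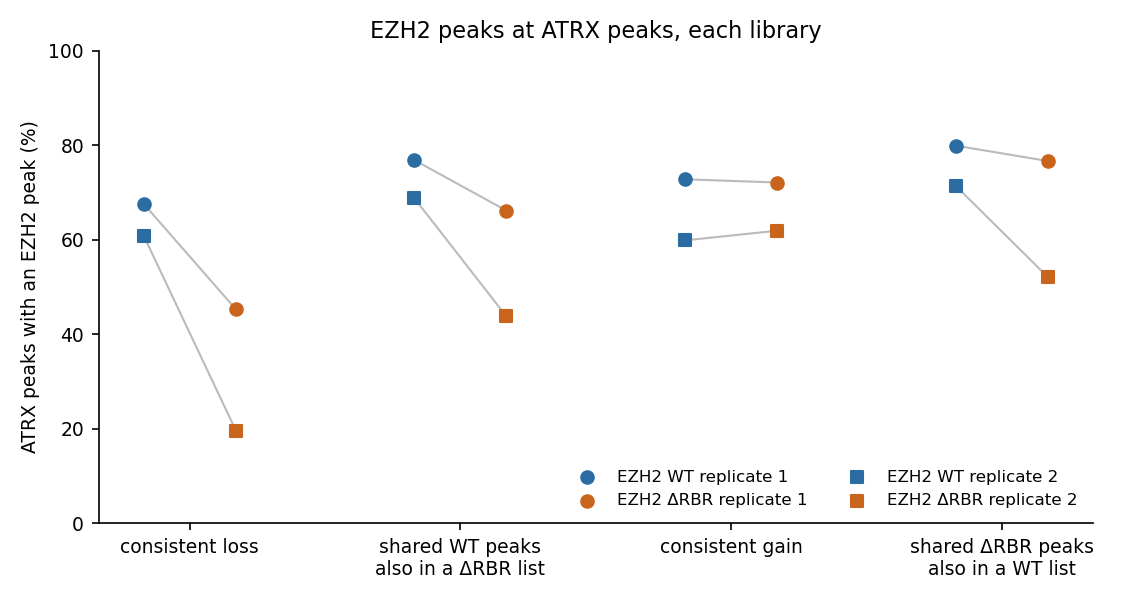
Percentage of ATRX peaks overlapped by an EZH2 peak in each EZH2 library (circles, replicate 1; squares, replicate 2; blue, WT; orange, ATRXΔRBR), with grey lines joining libraries of the same number. The steepest lines are those of the consistent losses (67.6% to 45.3% and 60.8% to 19.6%), and those of the gains are nearly flat.

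H3K27me3, the mark that EZH2 deposits, was almost absent from these peaks. An H3K27me3 peak overlapped 0 and 1 losses in WT and 0 and 2 in ATRXΔRBR, and 2 and 1 gains in WT and 2 in each ATRXΔRBR replicate. Kept WT peaks were overlapped in between 0.355% and 0.497%. The H3K27me3 lists covered between 103 and 147 Mb in total.

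The RNA of the genes concerned was then examined, with all 16287 genes with more than 10 estimated counts tested together. The libraries held between 9574175 and 13694802 estimated counts. Of all genes tested, 6.88% were called at an adjusted p under 0.05 (edgeR's quasi-likelihood test), 2.79% higher and 4.08% lower in ATRXΔRBR. In bulk RNA a change in the number of cells that express a gene and a change per cell cannot be told apart. Of the 12 fibroblast markers, 10 or 11 reached 1 TPM in each library and Thy1 was listed at 0, none of the 5 epithelial or 3 blood markers did, and at most 1 of 3 endothelial markers did. Of the 3 pluripotent markers only Sox2 reached 1 TPM, with 43.9 and 37.1 TPM in WT and 18.7 and 17.5 in ATRXΔRBR. Pou5f1 was listed at 0 in every library and Nanog at between 0.14 and 0.35 TPM. Atrx itself was listed at 233 and 141 TPM in WT and 175 and 124 in ATRXΔRBR, which does not check the in-frame deletion.

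Genes with a loss or a gain at the TSS were expressed, and few changed. The median level of the 105 protein-coding genes with a loss was 35.4 and 38.7 TPM in WT and 41.7 and 39.0 in ATRXΔRBR, and that of the 69 with a gain was 39.2 and 40.6 in WT and 44.8 and 37.0 in ATRXΔRBR. The median over all protein-coding genes was between 1.32 and 1.76 TPM. Genes with a kept WT peak at the TSS had medians of 34.0 and 40.1 TPM in WT and 42.3 and 37.5 in ATRXΔRBR. Those with a kept ATRXΔRBR peak had 37.4 and 41.9 in WT and 43.8 and 39.2 in ATRXΔRBR. The level was thus shared by genes with other recurrent ATRX peaks at the TSS. Of 154 annotated genes with a loss at the TSS, 111 passed the filter on low counts and 4 were called (3.604%), 2 higher and 2 lower, with a median log2 fold change of -0.04. Of 100 with a gain, 76 passed and 2 were called (2.63%), 1 in each direction, with a median of 0.02. Neither share exceeded the 6.88% of all genes tested. The number of called genes with a loss was 9 without WT replicate 2 of the RNA-Seq, and the number with a gain was 5 without WT replicate 1. Protein-coding genes with a member in the body but outside TSS windows were called in 12 of 124 (9.68%) for losses, 9 higher and 3 lower, and in 3 of 37 (8.11%) for gains, all higher.

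The 4 genes called among the losses moved in different directions. S100a4, a calcium-binding protein of motile fibroblasts, was listed at 4166 and 4164 TPM in WT and 9697 and 11816 in ATRXΔRBR, so that the genotypes were far apart. Its log2 fold change was 1.31 ± 0.19 (SE; adjusted p = 0.00585, edgeR), and the lost peak, with 4.36 and 3.85, lay inside the gene near its start. Ndrg1 was listed at 131 and 131 TPM in WT and 256 and 257 in ATRXΔRBR, with a log2 fold change of 0.91 ± 0.17 (adjusted p = 0.0171, edgeR). Thsd7a, a thrombospondin-domain protein, was listed at 1.88 and 1.85 TPM in WT and 0.10 and 0.08 in ATRXΔRBR. Its log2 fold change was -4.12 ± 0.52 (adjusted p = 0.00331, edgeR), and it lies in the first part of chromosome 6. Ier3, an immediate early gene that modulates apoptosis, was listed at 68.3 and 73.3 TPM in WT and 37.3 and 44.9 in ATRXΔRBR, with a log2 fold change of -0.83 ± 0.20 (adjusted p = 0.0478, edgeR). The Ier3 call was lost without WT replicate 1 and without ATRXΔRBR replicate 1 of the RNA-Seq. It was also lost with the replicate block, a separate setting on all libraries. A minimum of 10 counts in every library lost it too, and also dropped Thsd7a from the test.

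The gains held 2 called genes. Igfbp6, which binds insulin-like growth factors with preference for IGF-II, was listed at 3.75 and 2.68 TPM in WT and 15.1 and 23.3 in ATRXΔRBR (log2 fold change 2.52 ± 0.38, adjusted p = 0.00697, edgeR). Lrig1 was listed at 39.2 and 36.8 TPM in WT and 17.8 and 14.1 in ATRXΔRBR (log2 fold change -1.12 ± 0.17, adjusted p = 0.00796, edgeR). Of the other genes named above, the closest to a call was Lgals2, with 5.77 and 11.0 TPM in WT and 19.2 and 24.6 in ATRXΔRBR (adjusted p = 0.0706, edgeR). Txn1 was listed at 1232 and 982 TPM in WT and 611 and 744 in ATRXΔRBR, a log2 fold change of -0.77 ± 0.22 that did not pass (adjusted p = 0.0876, edgeR). Pik3ca (0.00 ± 0.19), Cep68 (0.01 ± 0.21) and Rpl10a (-0.06 ± 0.19) had log2 fold changes near 0.

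Members at the TSS of gene groups of interest were few, as they were over all genes. Of 21951 protein-coding genes, 105 had a loss and 69 a gain at the TSS. At such shares a small group would hold few or none, so the counts are given as a description. Of 79 cytosolic ribosomal protein genes, ATRX peaks were at the TSS of 10 and 8 in WT and 16 and 4 in ATRXΔRBR, and Rpl10a and Rps2 had a gain. Of 23 immediate early and AP-1 genes, 14 and 8 had a peak in WT and 15 and 8 in ATRXΔRBR, with a loss at Ier3 and a gain at Jund, an AP-1 subunit. Of 39 Hox genes, 4 and 1 had a peak in WT and 5 and 1 in ATRXΔRBR, with a loss at Hoxb2, and of 30 fibroblast matrix and identity genes only S100a4 had a loss. No member lay at the TSS of the 11 ATRX and H3.3 chaperone genes, 12 globin genes, 35 imprinted genes, 30 Polycomb genes, 17 nuclear lncRNAs, 17 pluripotency genes or the 5 ancestral pseudoautosomal genes found. Among all protein-coding genes, 12.04% and 5.76% had a peak at the TSS in WT and 13.6% and 4.97% in ATRXΔRBR. Jund, Rps2 and Hoxb2 were not called in RNA-Seq, with log2 fold changes of 0.52, -0.04 and -0.21.

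Among loci that the study examined by name, the start of Ccdc191 on chromosome 16, which lies inside Qtrt2 on the other strand, was a consistent gain. Its peak, chr16:43889554-43890060, had 4.78 in ATRXΔRBR replicate 1 and its counterpart 4.39 in replicate 2, and no WT list held a peak in either gene. Ccdc191 was listed at 10.2 and 6.50 TPM in WT and 13.5 and 13.3 in ATRXΔRBR (log2 fold change 0.63 ± 0.26, adjusted p = 0.218, edgeR). Fzd7, a Wnt receptor, had a peak in ATRXΔRBR replicate 1 alone (4.41), Rnf40, an H2B ubiquitin ligase, and Slc25a16 had one in WT replicate 1 alone (4.23 and 4.16), and Gins2 had one in the replicate 1 list of each genotype (3.99 and 4.64). No list held a peak within 2 kb of Parp12. Of these loci, only Ccdc191 and Qtrt2 held a peak that met the rule.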

How the data were processed

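ATRX, EZH2 and H3K27me3 CUT&RUN of WT and ATRXΔRBR MEFs gave 12 peak lists, and RNA-Seq gave 4 libraries. The authors aligned CUT&RUN reads to mm10 (GRCm38) using Bowtie2, and MACS2 gave a broad peak list per library, as the submitters' processing notes and the paper's methods state. Deposited per peak were a fold enrichment, which is a ratio to local background, and a −log10 q-value. Whether IgG served as control is not given in the sources used here. The RNA-Seq files hold estimated counts and TPM, which the authors obtained with STAR and RSEM. The deposited ATRX knockdown libraries were not used.

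Overlap was counted from 1 bp. TSS, taken with 2 kb on each side, were the annotated gene starts of GENCODE M21, with 55450 genes. All peaks and genes lay within the GRCm38 chromosome lengths. Motifs were searched in 300 bp at peak midpoints. Estimated counts were rounded, filtered at a total above 10, TMM-normalized and tested with the quasi-likelihood test of edgeR, with p-values adjusted by Benjamini-Hochberg over all genes and a threshold of 0.05. The overlap and count scripts were tested on simulated data. RNA-Seq p-values measure the spread between 2 libraries per genotype, which the paper calls biological replicates. Libraries of the same number are not stated to be paired.

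Named peaks were the 10 with the highest lower fold enrichment, overall and at protein-coding TSS, and 1 of the strongest losses is not reported here. Named genes were those called in RNA-Seq, members of the gene lists, and loci the study names. The members and lists were chosen with earlier results of these data known. Python 3.11.15, R 4.3.3, edgeR 4.0.16 and DESeq2 1.42.0 were used. Alternatives were other overlaps, q-values, windows, filters and tools, each library left out, and the replicate block. The omission of the replicate 2 lists, of chromosomes 6 and 10, and the crossed block were chosen after seeing the data.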

Additional observations from a re-analysis of the deposited data

How the results depend on the processing

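Losses numbered between 398 and 415, and gains between 138 and 168, when overlap had to cover 50% of the peak, when replicate 2 peaks were counted or when merged regions were counted. The 50% rule raised the share lost to 17.2% and the share gained to 11.4%. With q of 0.01 or less in all 4 lists, 85 peaks met the rule for gains, the shares lost and gained were 19.7% and 9.84%, and 19.3% of losses were at a TSS. With that limit on the counted peak and its replicate alone, 117 losses (7.29%) and 28 gains (3.24%) were left. Without both replicate 2 lists there were 5703 losses (62.4%) and 2870 gains (45.7%). Without chromosomes 6 and 10 the share lost was 10.0%. Leaving out 1 ATRX library gave 902 to 4339 losses (19.6% to 47.5%) and 389 to 2456 gains (18.8% to 39.1%). These counts, and those without both replicate 2 lists, could only rise, since each list left out removes a condition of the rule. Of the losses 19.99% to 39.0%, and of the gains 29.3% to 55.1%, were then at a TSS. A window of 1 kb put 24.2% of losses and 43.5% of gains at a TSS, the midpoint of the peak put 49.7% of gains there, and protein-coding genes alone put 21.3% of losses and 42.9% of gains at a TSS. The mean EZH2 share in ATRXΔRBR minus that in WT was -31.7 percentage points at losses and -18.1 without the ATRX replicate 2 lists. At gains it was 0.68, and it turned to -2.04 with EZH2 peaks of q of 0.01 or less and to -6.22 without the ATRX replicate 2 lists, so it has no stable direction. The GC difference was 5.28 percentage points over 300 bp, 2.06 outside TSS, 2.95 at TSS and 3.67 without chromosomes 6 and 10. Where no value is given for a cause, the cause was not tested.

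In RNA-Seq, 8 genes with a loss were called with no filter on low counts and 2 with at least 10 counts in every library, and 1 gene with a gain was called with a window of 1 kb and 1 without chromosomes 6 and 10. Leaving out 1 RNA-Seq library gave 4 to 9 and 2 to 5 calls, with the lone library assumed to vary like the others. Over all genes the calls numbered 1120, and 1979 with no filter and 597 with the stricter filter. With the replicate block 3 genes with a loss and 2 with a gain were called, and 1068 over all genes. Same-numbered libraries deviated in opposite directions (correlation -0.37 over genes), and with crossed pairs as a block 36 genes with a loss, 24 with a gain and 5547 in all were called.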
